A study of Mus musculus with 28 samples.

Results

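The activation of SIRT1mKO satellite cells, in which exon 4 of the deacetylase gene Sirt1 is the target of Cre, was followed by comparing 2 groups of polyA RNA-seq libraries, 5 of the 28 samples of the series and 5 of its 18 RNA-seq libraries. Satellite cells are the stem cells of skeletal muscle. KO_Cul (2 libraries) are SIRT1mKO satellite cells that proliferated in Ham's F-10 medium with 20% fetal bovine serum and bFGF at 12.5 ng/ml after FACS isolation. KO_FI (3 libraries) are SIRT1mKO satellite cells taken directly after FACS isolation, labelled quiescent. All 5 libraries carry the same alleles on a C57Bl/6 background: Cre knocked into the Pax7 locus and a floxed exon 4 of Sirt1, so that exon 4 is removed in cells of the Pax7 lineage and any other cell in the sort keeps the allele. The members were chosen by genotype and state as the labels give them. WT_Cul and WT_FI, the same states in WT mice, were used only to ask whether a change differed, and the labels do not say whether these mice carried the Cre. The sources used here give no age or sex of the mice, no number of animals per library and no time in culture.

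Satellite cells rest outside the cell cycle beneath the basal lamina of the muscle fibre, where Pax7, Notch signalling and the calcitonin receptor keep them quiescent. On injury or in culture they enter the cell cycle, raise MyoD and multiply as myoblasts, and later exit the cycle to fuse. SIRT1 removes acetyl groups from histones, lysine 16 of histone H4 among them, and from other proteins. It needs NAD, so its activity is tied to the metabolic state of the cell.

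Depth was 75674366 and 80628431 fragments in KO_Cul, against 65324684, 34215376 and 34904044 fragments in KO_FI (indices 0 and 1, and 0, 1 and 2, as in the deposited tables). The cultured and the fresh libraries came from separate deposited tables, so the state and the table cannot be told apart in this comparison. KO_FI index 0 stood apart from the other KO_FI libraries. Among 15882 genes tested, 145 were at under 1/10 of their level in both other KO_FI libraries there and 12 at over 10-fold, against 0 such genes in index 1 and 0 in index 2 (genes of at least 20 CPM). Of its fragment values above 0, 8.11% were more than 0.01 away from a whole number, against 2.82% in index 1 and 2.71% in index 2. WT_FI index 0 of the same table had 8.18%, against 2.68% and 2.43% in the other WT_FI libraries. Whether the libraries of index 0 were processed in another way is not given in the sources used here, and the cause was not tested. Values without KO_FI index 0 are given for some genes and lists below. Gapdh, for example, was at 224 and 120.4 CPM in KO_Cul, against 0.829, 468 and 405 CPM in KO_FI, and Rpl11 at 1642 and 1017 CPM in KO_Cul, against 0.355, 684 and 592 CPM in KO_FI (named after their values were seen). Many genes of this kind have processed pseudogenes with near-identical sequence, so their values are uncertain. Spearman's rho over genes was 0.948 and 0.949 between index 0 and the other KO_FI libraries and 0.994 between those 2. Levels of Xist, expressed in female cells, were 0.442 and 1400 CPM in KO_Cul, against 1279, 1492 and 2645 CPM in KO_FI. The Y-linked Ddx3y was at 44.9 and 37.5 CPM in KO_Cul, against 91.2, 43.8 and 34.6 CPM in KO_FI. KO_Cul index 0 alone had almost no Xist, and the part of this difference between the KO_Cul libraries in the results was not tested.

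Levels are in CPM, fragments scaled to library size with TMM factors, and fold changes are log2, KO_Cul against KO_FI, given with their standard error (SE). A gene passed when its adjusted p in edgeR's quasi-likelihood test (Benjamini-Hochberg, all genes of the fit) was under 0.05. The labels do not say that the libraries came from separate animals or cultures, so p-values measure the spread between these libraries, which may be technical.

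Sirt1 itself was present in every library, at 41.7 and 53.9 CPM in KO_Cul, against 57.3, 34.1 and 40.2 CPM in KO_FI. The groups overlapped, and the log2 fold change of 0.12 ± 0.267 did not pass (adjusted p = 0.704). Its sign was not stable: it turned to −0.21 with upper quartile factors, to −0.29 with library sizes alone, to −0.13 in FPKM, to −0.073 without KO_Cul index 1 and to −0.083 without KO_FI index 1. Counts of the whole gene hold reads from all exons, and whether exon 4 was deleted cannot be read from them.

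Most of the measured genes differed between the cultured and the fresh knockout cells. Of the 15882 genes tested, 9959 (62.7%) passed, 4670 (29.4%) higher and 5289 (33.3%) lower in KO_Cul. Changes of more than 2-fold were found in 3458 of the higher and 4732 of the lower genes, and the median log2 fold change was 1.5 over the higher and −3.15 over the lower genes. Over all genes tested the median was −0.15. It moved to −0.47 with upper quartile factors and to −0.55 with library sizes alone, so the direction of small changes depends on the scaling. In 5987 genes (37.7%) every KO_Cul library was above every KO_FI library, and in 6697 genes (42.2%) below. The share of calls that were higher was 46.9%, against 36.3% with upper quartile factors and 34.1% with library sizes alone.

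The genes with the largest increases had few transcripts in fresh cells. Hmga2, a chromatin protein of proliferating progenitors, was at 849.6 and 818 CPM in KO_Cul, against 0.0789, 3.49 and 3.31 CPM in KO_FI (8.52 ± 1.49 on the log2 scale, adjusted p = 0.00474; 7.93 without KO_FI index 0). Nptx1, a secreted pentraxin, was at 548 and 889 CPM in KO_Cul, against 1.64, 0.322 and 0.311 CPM in KO_FI (9.83 ± 0.992). In both genes every KO_Cul library stood far above every KO_FI library. Asns, which makes asparagine, was at 498 and 532 CPM in KO_Cul, against 6.23, 2.17 and 3.16 CPM in KO_FI, and Slc7a11, the cystine importer, at 53.9 and 383 CPM in KO_Cul, against 1.85, 0.831 and 0.958 CPM in KO_FI. Asns differed little between the KO_Cul libraries, while Slc7a11 was several times higher in KO_Cul index 1. Murc, a caveolar protein of muscle cells, was at 30.6 and 33.0 CPM in KO_Cul, against 0.158, 0.161 and 0.155 CPM in KO_FI (7.63 ± 0.237, adjusted p = 0.000181). Cst6, Kcnf1, Dusp9, Ptprn and Adm2 were also among the 12 largest increases, with log2 fold changes of 8.36, 7.72, 7.38, 7.06 and 9.33.

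The largest decreases went to 0 fragments in both KO_Cul libraries. Enpp2, the secreted enzyme autotaxin that makes lysophosphatidic acid, was at 0 and 0 CPM in KO_Cul, against 141, 152 and 119 CPM in KO_FI, at least 2978-fold lower when a count of 0 is read as 3 fragments in each library (a limit for counting error alone). Also at 0 in both KO_Cul libraries were Beta-s, a haemoglobin chain, Mpo, the peroxidase of neutrophils, Olfr558, Col6a6, Retnla and Ccdc85a, at least 1406-fold, 1320-fold, 922-fold, 749-fold, 552-fold and 519.6-fold lower. Npy1r (−12.29) and Thrsp (−11.63) were at 0 in 1 KO_Cul library and near 0 in the other. Rgs5, Abcc9 and Kcnj8, genes typical of pericytes, fell to 0.119 and 0.0962 CPM in KO_Cul, against 558, 484 and 589 CPM in KO_FI for Rgs5, with log2 fold changes of −12.28, −12.49 and −11.71. Beta-s, Mpo, Rgs5, Abcc9 and Kcnj8 are known from blood or vessel cells, and whether satellite cells expressed them here was not tested. Markers of blood and vessel cells are described after the quiescence and matrix genes.

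**Figure D1:**
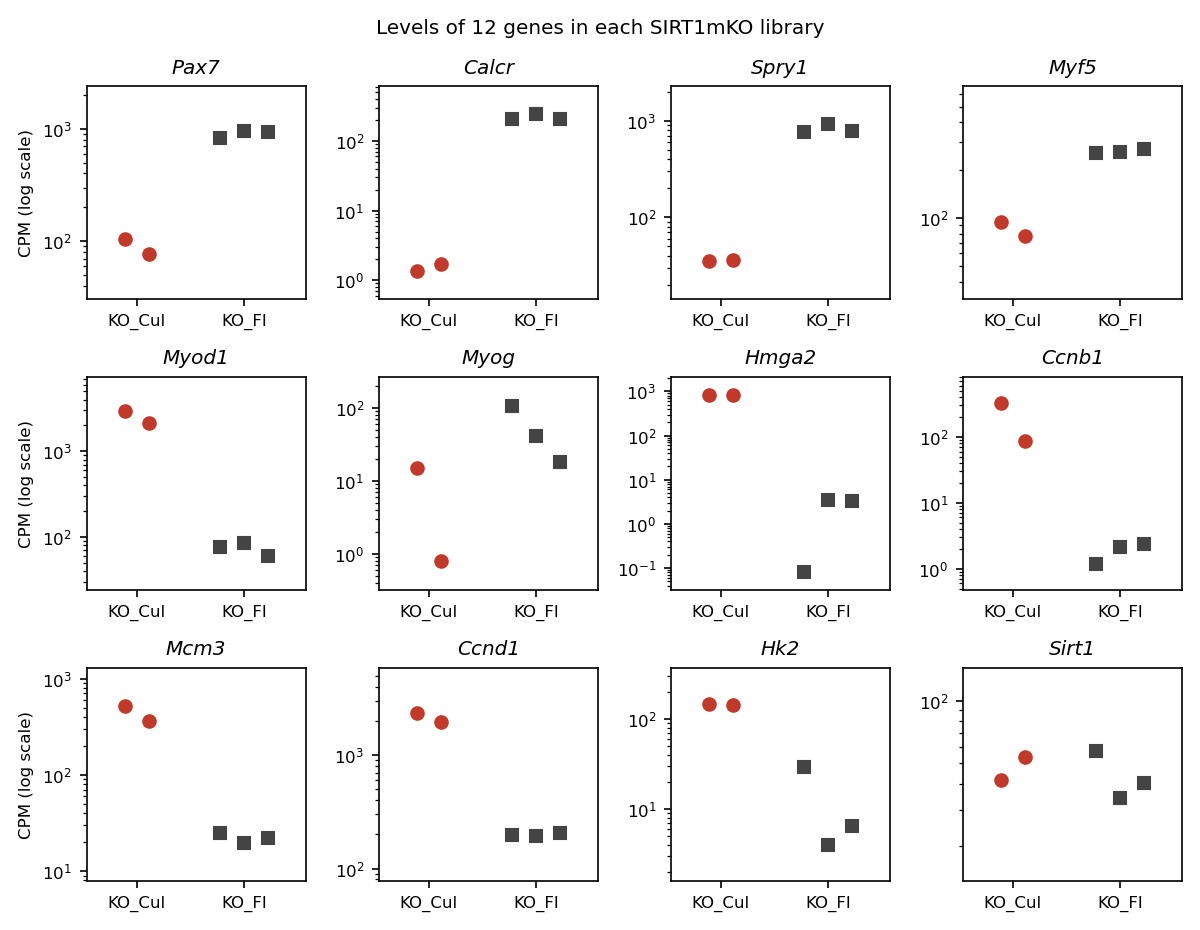
CPM (log scale) of 12 genes in each SIRT1mKO library, with KO_Cul as circles and KO_FI as squares, in the order of their index. Pax7, Calcr, Spry1 and Myf5 were lower in both KO_Cul libraries than in any KO_FI library, Myod1, Hmga2, Ccnb1, Mcm3, Ccnd1 and Hk2 (hexokinase, chosen after its values were seen) were higher, Myog was lower without passing, and Sirt1 overlapped.

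Most genes of quiescent satellite cells fell in culture. Of 25 genes, 22 fell, 1 rose and 2 did not pass, with a median log2 fold change of −4.48, against 33.3% of all genes that fell. Calcr, the calcitonin receptor that holds satellite cells in quiescence, was at 1.34 and 1.70 CPM in KO_Cul, against 205, 245 and 207 CPM in KO_FI (−7.16 ± 0.252, adjusted p = 0.000181). Spry1, an inhibitor of FGF signalling needed for the return to quiescence, was at 35.6 and 36.1 CPM in KO_Cul, against 762, 923 and 793 CPM in KO_FI (−4.53 ± 0.254). Both were many times lower in each KO_Cul library. Pax7, the transcription factor that defines satellite cells, was at 104 and 76.6 CPM in KO_Cul, against 818, 958 and 927 CPM in KO_FI (−3.32 ± 0.274, adjusted p = 0.000497), lower but not lost. Chrdl2, a BMP antagonist, was at 3.59 and 2.71 CPM in KO_Cul, against 326, 406 and 442 CPM in KO_FI, Fgfr4, an FGF receptor, at 32.6 and 17.8 CPM in KO_Cul, against 1144, 1425 and 1232 CPM in KO_FI, and Tek, the angiopoietin receptor, at 2.72 and 4.28 CPM in KO_Cul, against 99.7, 91.2 and 85.0 CPM in KO_FI. Their log2 fold changes were −6.96, −5.65 and −4.71. Sdc3, a heparan sulphate proteoglycan of satellite cells, went against the list, at 833 and 384 CPM in KO_Cul, against 189, 207 and 185 CPM in KO_FI (1.65 ± 0.347). The 2 genes that did not pass were Cd34 (−0.64, adjusted p = 0.411), for which KO_Cul index 0 was at 51.6 CPM and index 1 at 260.5 CPM, and the integrin Itga7 (0.33, adjusted p = 0.283). Adjusted p of the genes that passed ran from 0.000181 to 0.0301.

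The Notch pathway, which represses differentiation and keeps satellite cells quiescent, fell at the level of receptors and targets. Of the 15 genes, Rbpj was left out because its status was not OK. Of the 14 tested, 10 fell, 1 rose and 3 did not pass (median −2.86), against 33.3% of all genes that fell. Among the receptors, Notch3 was at 18.1 and 7.11 CPM in KO_Cul, against 2806, 3044 and 3012 CPM in KO_FI (−7.87 ± 0.624) and Notch1 at 52.2 and 37.8 CPM in KO_Cul, against 520.4, 367 and 416 CPM in KO_FI (−3.27 ± 0.288), while Notch4, at lower levels, fell by 3.60 on the log2 scale. Among the targets, Hey1 was at 4.45 and 4.81 CPM in KO_Cul, against 138, 104 and 71.8 CPM in KO_FI (−4.5) and Nrarp, which limits Notch signalling, at 0.408 and 0.894 CPM in KO_Cul, against 48.4, 22.7 and 23.8 CPM in KO_FI (−5.59). The groups did not overlap in any of these 5 genes, while 42.2% of all genes tested were lower without overlap. The ligand Jag2 rose, to 135 and 92.6 CPM in KO_Cul, against 31.3, 21.5 and 19.3 CPM in KO_FI (2.25 ± 0.282, adjusted p = 0.00153). Heyl, Hey1, Hes1 and Notch3 are also in the quiescence list, so the 2 lists are not separate evidence.

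Genes of the niche, which encode matrix and adhesion proteins, fell more often than they rose. Of 23 genes, 13 fell, 6 rose and 4 did not pass (median −2.04), against 33.3% of all genes that fell and 29.4% that rose. The collagen VI chains Col6a1 and Col6a2 fell, with Col6a1 at 11.5 and 5.17 CPM in KO_Cul, against 851, 1079 and 971 CPM in KO_FI and log2 fold changes of −6.85 and −5.96. Col5a3, a collagen V chain that binds the calcitonin receptor, was at 50.6 and 37.2 CPM in KO_Cul, against 1059, 1311 and 1273 CPM in KO_FI (−4.79 ± 0.316). The laminin chains Lama2 (−3.38) and Lamb2 (−2.99) of the basal lamina fell as well. The 6 genes that rose were the integrins Itgb1, Itga5 and Itgav, Cdh2, Tnc and the collagen Col5a2. N-cadherin (Cdh2) was at 153 and 115 CPM in KO_Cul, against 14.9, 24.3 and 24.4 CPM in KO_FI (2.66 ± 0.276) and the fibronectin receptor subunit Itga5 at 165 and 108 CPM in KO_Cul, against 54.2, 47.8 and 49.98 CPM in KO_FI (1.43 ± 0.210).

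Markers of other cell types fell together with these genes. All 13 endothelial markers passed as lower (median −5.88), as did 12 of 13 of fibroblasts and fibro-adipogenic cells (−5.68), 11 of 13 of macrophages and leukocytes, 8 of 9 of pericytes and smooth muscle (−7.11), 7 of 8 of Schwann cells (−5.21), 7 of 9 of lymphocytes and 4 of 5 tested of erythroid cells, and none of them rose. The summed level of the fibroblast list was 368 and 195 CPM in KO_Cul, against 9030.0, 7881 and 6592 CPM in KO_FI. The summed endothelial list was at 24.0 and 29.7 CPM in KO_Cul, against 881, 555 and 606 CPM in KO_FI, and the Schwann cell list at 41.8 and 73.7 CPM in KO_Cul, against 1544, 1431 and 1102 CPM in KO_FI. In all 3 lists each KO_FI library was more than 10-fold above each KO_Cul library. Over all genes tested, 33.3% fell. Pericyte and smooth muscle markers summed to 907 and 1204 CPM in KO_Cul, against 4498, 3873 and 3964 CPM in KO_FI, of which the desmin gene Des, also a muscle gene, made up 739 and 1049 CPM in KO_Cul, against 727, 594 and 552 CPM in KO_FI. Summed macrophage and leukocyte markers were at 21.3 and 14.1 CPM in KO_Cul, against 225, 173 and 289 CPM in KO_FI, lymphocyte markers at 2.69 and 6.02 CPM in KO_Cul, against 25.3, 7.46 and 14.4 CPM in KO_FI and erythroid markers at 0.408 and 0.234 CPM in KO_Cul, against 59.8, 11.4 and 22.8 CPM in KO_FI.

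Defining markers at or near 0 in culture were Flt1 of endothelial cells (0.0510 and 0.247 CPM in KO_Cul, against 79.0, 45.7 and 56.2 CPM in KO_FI) and Ptprc of leukocytes (0.0510 and 0.137 CPM in KO_Cul, against 16.4, 7.54 and 22.5 CPM in KO_FI). C1qa, Emr1, Ms4a1, Cd3g, Slc4a1, Hbb-b1, Hbb-b2 and Pvalb were at 0 in both KO_Cul libraries. Collagen III (Col3a1) was still at 229 and 86.5 CPM in KO_Cul, against 2228, 2561 and 2420.1 CPM in KO_FI. Markers of mature myofibres, of which 6 of 11 fell and Eno3 rose, overlapped in their sum, at 415 and 54.0 CPM in KO_Cul, against 206, 235 and 211 CPM in KO_FI. The satellite cell list, with 7 of 8 lower, summed to 2204 and 1858 CPM in KO_Cul, against 5838, 6462 and 5564 CPM in KO_FI. Satellite cell transcripts, the labelled cell type, were present in every library. Heyl, Notch3, Col6a1, Col15a1 and other genes of the lists above are also known from vessel cells or fibroblasts, and the part of these cells in the losses of quiescence, Notch and matrix genes was not tested. In bulk samples, fewer cells of a type and less RNA per cell cannot be told apart.

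**Figure D2:**
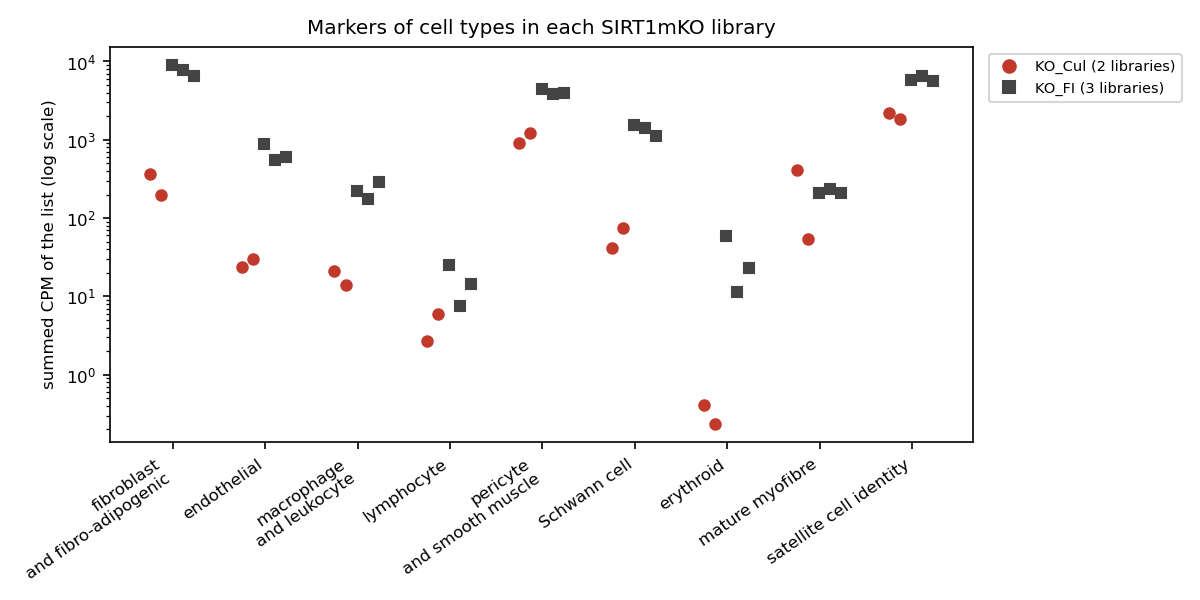
Summed CPM (log scale) of 9 lists of cell type markers in each SIRT1mKO library, with KO_Cul as circles and KO_FI as squares. The 7 lists of non-myogenic cells were lower in both KO_Cul libraries than in any KO_FI library, while the sums of the mature myofibre list overlapped.

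The myogenic regulators moved in both directions. Myod1, the factor that commits cells to myogenesis, rose strongly, to 2941 and 2112 CPM in KO_Cul, against 76.4, 85.5 and 59.9 CPM in KO_FI (5.09 ± 0.316, adjusted p = 0.000309). Myf5, its relative that marks committed satellite cells, fell, to 94.9 and 77.6 CPM in KO_Cul, against 254, 260.2 and 269 CPM in KO_FI (−1.60 ± 0.177, adjusted p = 0.00102). Myog, which starts terminal differentiation, was at 14.9 and 0.797 CPM in KO_Cul, against 106, 41.0 and 18.1 CPM in KO_FI (−2.81 ± 1.36) and did not pass (adjusted p = 0.120). Its libraries varied widely in both groups, though the groups did not overlap. Of the 17 genes of myogenic commitment, 4 rose, 7 fell and 6 did not pass (median −0.25; 29.4% and 33.3% over all genes), while their summed level was higher in each KO_Cul library, at 5654 and 5429 CPM in KO_Cul, against 2853, 2942 and 2819.7 CPM in KO_FI, of which Myod1 was a large part. Met, the receptor for hepatocyte growth factor that activates satellite cells, was at 626 and 867 CPM in KO_Cul, against 56.4, 74.1 and 75.02 CPM in KO_FI (3.45 ± 0.256), and Dek, a chromatin protein of activated satellite cells, at 327 and 309.9 CPM in KO_Cul, against 126, 113 and 127 CPM in KO_FI (1.39 ± 0.157). Six4 also rose (1.21; named after its values were seen). Mef2c, a cofactor of the MyoD family, was at 0.646 and 0.536 CPM in KO_Cul, against 59.1, 36.3 and 46.9 CPM in KO_FI (−6.32 ± 0.340), and the adhesion molecule M-cadherin (Cdh15) at 59.1 and 30.1 CPM in KO_Cul, against 451, 704 and 503 CPM in KO_FI (−3.63 ± 0.429). Both were lower in each KO_Cul library.

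Genes of differentiated muscle showed no common direction. Of 31, 3 rose, 8 fell and 20 did not pass (median −0.79), against 29.4% of all genes that rose and 33.3% that fell. Their summed levels overlapped, at 1855 and 937 CPM in KO_Cul, against 1239, 1069 and 962 CPM in KO_FI. The acetylcholine receptor subunits Chrna1 and Chrng rose, with Chrna1 at 1286 and 685 CPM in KO_Cul, against 116, 140.1 and 96.7 CPM in KO_FI (3.07 ± 0.345) and Chrng at 15.2 and 7.78 CPM in KO_Cul, against 0.395, 0.268 and 0.104 CPM in KO_FI (5.43 ± 0.621). The calcium pump Atp2a1 (−3.19), the sarcomere protein Myom1 (−5.23) and the dystrophin gene Dmd fell, with Dmd at 11.8 and 22.1 CPM in KO_Cul, against 274, 240.2 and 248 CPM in KO_FI (−3.91 ± 0.337). The cultured libraries differed widely in some contractile genes. The myosin Myh3 was at 6.27 and 0.165 CPM in KO_Cul, against 1.80, 0.510 and 0.388 CPM in KO_FI and the troponin Tnnc1 at 4.35 and 0.371 CPM in KO_Cul, against 0.329, 0.456 and 0.181 CPM in KO_FI (named after their values were seen). In both, KO_Cul index 0 was more than 10-fold above index 1.

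Immediate early genes, which answer within minutes to stress and growth signals and are known to be induced by tissue dissociation, were lower in culture. Of 24 immediate early and heat shock genes tested, 18 fell, 2 rose and 4 did not pass (median −2.93). Over all genes, 33.3% fell. Fos, Jun and Egr1 and the chaperone genes Hspa1a and Hspa1b had a status other than OK in the FI table and have no values here. Dusp1, a phosphatase that shuts off MAP kinases, was at 23.6 and 28.1 CPM in KO_Cul, against 1199.7, 1619 and 1589.7 CPM in KO_FI (−5.83 ± 0.339). Zfp36, which destabilises inflammatory mRNAs, was at 12.9 and 17.1 CPM in KO_Cul, against 4805, 3020.3 and 2579 CPM in KO_FI (−7.86 ± 0.534), and the nuclear receptor Nr4a1 at 19.0 and 19.6 CPM in KO_Cul, against 3576, 1799 and 1861 CPM in KO_FI (−6.97 ± 0.540). The groups were at least 10-fold apart in all 3, with KO_FI index 0 highest in Zfp36 and Nr4a1. Junb (−4.78) and Egr2 (−6.22) fell likewise. Fosl1, an AP-1 subunit of proliferating cells, went against the list, at 134 and 128 CPM in KO_Cul, against 4.499, 0.0805 and 0.311 CPM in KO_FI (6.25 on the log2 scale, adjusted p = 0.0121). It was 9.35 without KO_FI index 0, which alone held several CPM, and it did not pass without KO_Cul index 0 (adjusted p = 0.0724) or index 1 (0.0618). The chaperone Hsp90aa1 was at 2074 and 2031 CPM in KO_Cul, against 417, 380.5 and 428 CPM in KO_FI (2.33 ± 0.221).

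Most interferon response genes fell as well. Of 20 interferon response genes, 16 fell, 1 rose and 3 did not pass (median −3.47), against 33.3% of all genes that fell. Stat2, which carries the interferon signal to the nucleus, was at 5.86 and 8.08 CPM in KO_Cul, against 47.2, 39.9 and 39.6 CPM in KO_FI (−2.60 ± 0.229). Oasl2, an interferon-induced antiviral gene, was at 0.323 and 0.330 CPM in KO_Cul, against 8.80, 13.3 and 12.04 CPM in KO_FI, and Irf7 (−5.44) and Usp18 (−6.64) fell too. Bst2 rose (0.88 ± 0.283, adjusted p = 0.0375), but not without KO_Cul index 1 (0.38, adjusted p = 0.126) or any KO_FI library (adjusted p = 0.0506 to 0.125). Of 15 NF-kB targets, 7 fell, 2 rose and 6 did not pass (median −1.92), against 33.3% of all genes that fell and 29.4% that rose. The chemokine Cxcl1 was at 3.13 and 7.31 CPM in KO_Cul, against 551, 335 and 314 CPM in KO_FI (−6.26 ± 0.591) and the feedback inhibitor Nfkbia at 96.3 and 130.5 CPM in KO_Cul, against 486, 385 and 377 CPM in KO_FI (−1.88 ± 0.251). Traf1, a signalling adaptor, rose to 12.5 and 6.13 CPM in KO_Cul, against 1.41, 0.831 and 1.76 CPM in KO_FI (2.80 ± 0.480), and Nfkb2 at 205 and 207 CPM in KO_Cul, against 119, 85.0 and 91.6 CPM in KO_FI (1.06 ± 0.191).

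**Figure D3:**
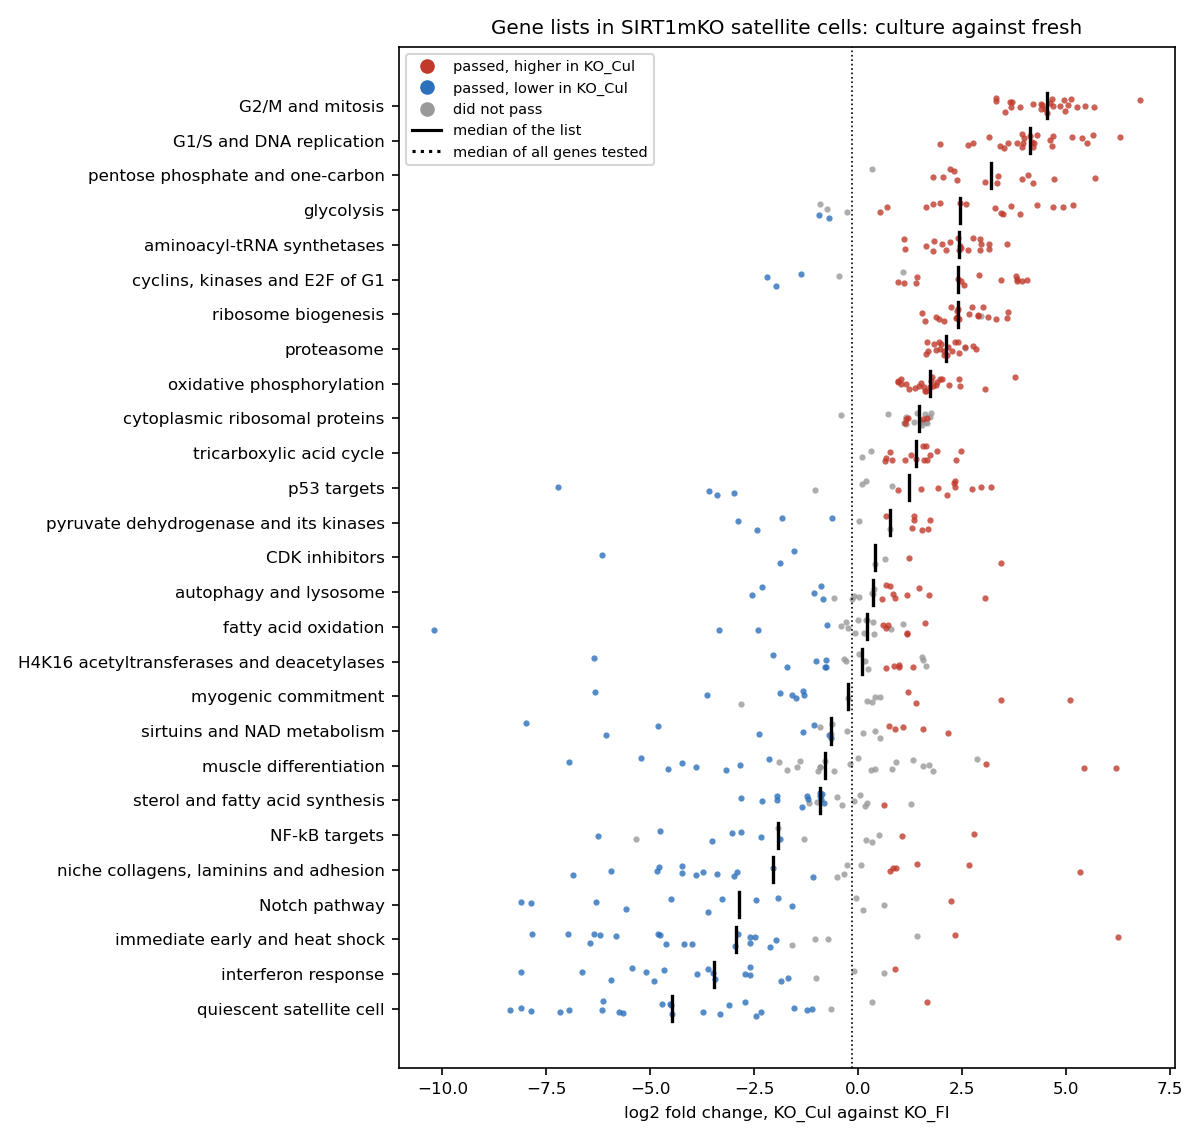
Log2 fold changes, KO_Cul against KO_FI, of the genes of 27 functional lists, with 1 point per gene coloured by the test, a bar at the median of each list and a dotted line at the median of all genes tested (−0.15). All points of both cell cycle lists at the top (G2/M and G1/S) lie above 0 and passed, and most points of the quiescence list at the bottom lie below 0. Qprt, with 0 fragments in both KO_Cul libraries, is drawn at its fitted value.

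Genes of DNA replication and of mitosis rose throughout. All 25 genes of G1/S and DNA replication rose (median 4.13, 1.97 to 6.31, adjusted p = 0.000181 to 0.00142), as did all 25 of G2/M and mitosis (median 4.54, 3.32 to 6.78, adjusted p = 0.000418 to 0.00963), against 29.4% of all genes. The replicative helicase subunit Mcm3 was at 515 and 362 CPM in KO_Cul, against 24.9, 19.7 and 21.95 CPM in KO_FI (4.31 ± 0.233) and Mcm6 at 521 and 481 CPM in KO_Cul, against 33.9, 23.6 and 28.4 CPM in KO_FI (4.13 ± 0.222). Cdt1, which loads the helicase onto DNA, was at 286 and 270.5 CPM in KO_Cul, against 13.2, 9.23 and 10.6 CPM in KO_FI (4.66 ± 0.206). Fen1, which trims Okazaki fragments, was at 154 and 109 CPM in KO_Cul, against 7.75, 6.68 and 6.78 CPM in KO_FI (4.21). In these replication genes both KO_Cul libraries were at least 10 times above every KO_FI library.

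Mitotic genes rose as well, to different levels in the cultured libraries. Ccnb1, the cyclin that drives entry into mitosis, was at 325 and 86.9 CPM in KO_Cul, against 1.18, 2.15 and 2.36 CPM in KO_FI (6.78 ± 0.692, adjusted p = 0.000844). The kinase Bub1 of the spindle checkpoint was at 116 and 69.5 CPM in KO_Cul, against 4.22, 1.502 and 2.64 CPM in KO_FI (5.04 ± 0.495), and Mad2l1 of the same checkpoint at 154 and 76.2 CPM in KO_Cul, against 6.48, 6.33 and 5.75 CPM in KO_FI (4.22 ± 0.327). Ttk, another checkpoint kinase, was at 48.7 and 34.2 CPM in KO_Cul, against 2.03, 1.05 and 1.66 CPM in KO_FI (4.70 ± 0.351), and Prc1, which bundles the central spindle, at 315 and 128 CPM in KO_Cul, against 11.9, 7.43 and 9.14 CPM in KO_FI (4.54 ± 0.444). KO_Cul index 0 was higher than index 1 in each, and the G2/M list summed to 6286 and 2414 CPM in KO_Cul, against 291, 135 and 202 CPM in KO_FI. The G1/S list summed to 8039 and 5492 CPM in KO_Cul, against 423, 381 and 436 CPM in KO_FI.

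Promoters of these genes are shown because the members moved together. Windows of 250 bases before to 50 after the start of transcription were taken from RefSeq (GRCm38.p6) for 21 of the 25 G1/S genes and 20 of the 25 G2/M genes. E2F-like words (the word TTGGCGC, the word TTCGCGC, the word TTCCCGC or the word TTGCCGC, on either strand) were in 16 of 21 G1/S genes (76.2%), against 18.1% of the 11052 tested genes with a window. The cell cycle homology region (CHR, the word TTTGAA or the word TTCGAA, on either strand) was in 15 of 20 G2/M genes (75%), against 16.5%. The CCAAT box (the word CCAAT, on either strand) was in 17 of 20 G2/M genes (85.0%), against 42.2%. E2F words were marked in Cdt1 (chr8:122567765-122568064, + strand) and Fen1 (chr19:10203872-10204171, − strand), and CHR and CCAAT words in Ttk (chr9:83834439-83834738, + strand) and Prc1 (chr7:80294201-80294500, + strand), in capitals. A match is a description of the sequence, not of binding. The files' own build is mm9, and no position in it is given.
Cdt1: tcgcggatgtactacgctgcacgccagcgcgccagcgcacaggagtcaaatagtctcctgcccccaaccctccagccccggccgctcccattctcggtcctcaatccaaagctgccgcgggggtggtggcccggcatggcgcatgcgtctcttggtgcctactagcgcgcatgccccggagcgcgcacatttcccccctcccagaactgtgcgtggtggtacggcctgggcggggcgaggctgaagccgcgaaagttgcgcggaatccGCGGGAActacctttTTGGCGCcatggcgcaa
Fen1: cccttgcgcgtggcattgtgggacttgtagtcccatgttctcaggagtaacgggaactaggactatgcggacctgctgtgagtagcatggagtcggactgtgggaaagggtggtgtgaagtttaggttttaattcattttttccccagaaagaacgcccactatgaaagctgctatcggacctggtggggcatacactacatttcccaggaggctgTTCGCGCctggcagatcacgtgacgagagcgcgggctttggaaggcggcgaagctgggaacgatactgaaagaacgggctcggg
Ttk: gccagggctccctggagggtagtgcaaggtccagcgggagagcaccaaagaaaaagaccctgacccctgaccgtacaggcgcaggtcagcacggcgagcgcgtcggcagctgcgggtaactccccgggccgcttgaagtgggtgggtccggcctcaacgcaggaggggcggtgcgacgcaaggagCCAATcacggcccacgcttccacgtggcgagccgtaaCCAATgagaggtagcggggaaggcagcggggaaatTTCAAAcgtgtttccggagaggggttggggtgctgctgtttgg
Prc1: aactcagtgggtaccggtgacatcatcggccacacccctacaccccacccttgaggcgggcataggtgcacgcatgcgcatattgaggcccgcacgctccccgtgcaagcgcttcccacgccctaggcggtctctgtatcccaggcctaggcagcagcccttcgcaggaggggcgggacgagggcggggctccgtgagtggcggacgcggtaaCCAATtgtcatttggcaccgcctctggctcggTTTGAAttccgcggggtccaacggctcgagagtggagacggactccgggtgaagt

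Most genes that control the G1 phase, pocket proteins included, rose. Of 19 cyclins, kinases, E2F factors and relatives, 14 rose, 3 fell and 2 did not pass (median 2.42). Over all genes, 29.4% rose and 33.3% fell. Cyclin D1 (Ccnd1) was at 2343 and 1960.2 CPM in KO_Cul, against 198, 194 and 206 CPM in KO_FI (3.43 ± 0.232), its kinase Cdk4 at 821 and 561 CPM in KO_Cul, against 115, 135 and 138 CPM in KO_FI (2.42 ± 0.243), and E2f1, which activates replication genes, at 131 and 101 CPM in KO_Cul, against 8.23, 7.35 and 8.78 CPM in KO_FI (3.84 ± 0.190). All KO_Cul libraries stood above all KO_FI libraries in these 3, as in 37.7% of all genes tested. The pocket proteins went opposite ways: Rbl2, the form of resting cells, was at 18.5 and 20.7 CPM in KO_Cul, against 83.8, 73.7 and 75.2 CPM in KO_FI (−1.98 ± 0.160) and Rbl1, the form of cycling cells, at 65.5 and 82.2 CPM in KO_Cul, against 10.4, 8.10 and 10.9 CPM in KO_FI (2.91 ± 0.206). Mycn, a MYC family factor, fell to 1.31 and 2.17 CPM in KO_Cul, against 10.97, 6.03 and 6.83 CPM in KO_FI (−2.19).

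Among 7 CDK inhibitors, 2 rose, 3 fell and 2 did not pass, not far from the 29.4% and 33.3% over all genes. Without KO_FI index 1 or index 2 the calls numbered 3 (1 higher and 2 lower). Cdkn1c (p57) was at 1.00 and 1.42 CPM in KO_Cul, against 160.4, 62.7 and 35.8 CPM in KO_FI (−6.15 ± 0.853) and Cdkn1b (p27) at 42.2 and 43.9 CPM in KO_Cul, against 112, 138 and 124 CPM in KO_FI (−1.54 ± 0.162), both lower in each KO_Cul library. Cdkn2a, the locus of p16 and p19, was at 12.8 and 3.95 CPM in KO_Cul, against 0.776, 0.724 and 0.828 CPM in KO_FI (3.43 ± 0.553). Cdkn2b rose (1.23) and Cdkn2d fell (−1.88), at levels under 6 CPM. Cdkn2b did not pass without KO_Cul index 0 (adjusted p = 0.0527), KO_FI index 1 (0.0796) or index 2 (0.0725), and Cdkn2d did not pass without KO_Cul index 1 (0.127) or any KO_FI library (0.0511 to 0.0883). Targets of p53 split. Of 18, 10 rose, 4 fell and 4 did not pass (median 1.23), against 29.4% of all genes that rose and 33.3% that fell. Their summed level was lower, at 1822 and 2366 CPM in KO_Cul, against 4914, 2811 and 2915 CPM in KO_FI, a sum that Btg2 weighs on. The death effector Bax was at 226 and 189.8 CPM in KO_Cul, against 31.4, 31.4 and 30.3 CPM in KO_FI (2.75 ± 0.148) and Mdm2, which degrades p53, at 295 and 299 CPM in KO_Cul, against 66.8, 54.0 and 57.4 CPM in KO_FI (2.32 ± 0.161). Ccng1 (1.94) and Zmat3 (2.34) rose as well. Btg2, an antiproliferative gene that is also an immediate early gene, was at 16.4 and 18.6 CPM in KO_Cul, against 3749, 1974 and 2041 CPM in KO_FI (−7.21 ± 0.527), and Sesn1 at 11.3 and 14.3 CPM in KO_Cul, against 107, 156 and 144 CPM in KO_FI (−3.40 ± 0.253).

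Glycolysis genes, which split glucose to pyruvate and lactate, rose in most steps. Of 21, 16 rose, 2 fell and 3 did not pass (median 2.45), against 29.4% of all genes that rose. The liver form of phosphofructokinase (Pfkl) was at 334 and 279 CPM in KO_Cul, against 29.9, 27.2 and 24.8 CPM in KO_FI (3.49 ± 0.173, adjusted p = 0.000237), while the muscle form Pfkm was at 32.9 and 29.5 CPM in KO_Cul, against 50.4, 55.1 and 45.5 CPM in KO_FI (−0.69 ± 0.163, adjusted p = 0.0132). Lactate dehydrogenase A (Ldha) was at 3425 and 2066 CPM in KO_Cul, against 107, 161 and 150.1 CPM in KO_FI (4.30 ± 0.360) and triose phosphate isomerase (Tpi1) at 973 and 738 CPM in KO_Cul, against 45.2, 79.1 and 74.5 CPM in KO_FI (3.69 ± 0.325). The lactate transporters Slc16a3 (2.59 ± 0.323) and Slc16a1 (1.81 ± 0.239) rose too. In each of these rising genes the groups stood apart, as in 37.7% of all genes tested. Pfkfb3, which activates phosphofructokinase, fell (−0.94, adjusted p = 0.0124; 0.0515 without KO_Cul index 1). The list summed to 22288 and 14929.7 CPM in KO_Cul, against 1572, 3107 and 2873 CPM in KO_FI. KO_FI index 0 was the lowest, and without it 15 genes rose and 4 fell. Eno1 was at 2008 and 1161 CPM in KO_Cul, against 4.88, 62.6 and 64.2 CPM in KO_FI, Pgk1 at 2438 and 1562 CPM in KO_Cul, against 5.16, 98.8 and 92.5 CPM in KO_FI and Pgam1 at 1579.7 and 1180.4 CPM in KO_Cul, against 1.85, 78.4 and 79.8 CPM in KO_FI (named after their values were seen), so the fold changes of these 3 genes rest in part on that library.

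The pentose phosphate pathway and one-carbon metabolism, which supply ribose, NADPH and methyl units for nucleotides, rose in nearly every member. Of 14 genes, 13 rose and 1, Rpia, did not pass (median 3.20), against 29.4% of all genes that rose. Mthfd2, the mitochondrial folate enzyme, was at 372 and 373 CPM in KO_Cul, against 7.33, 6.03 and 8.05 CPM in KO_FI (5.71 ± 0.198, adjusted p = 0.000181). Shmt2, which takes a carbon from serine, was at 959.9 and 849 CPM in KO_Cul, against 41.5, 51.0 and 54.7 CPM in KO_FI (4.20 ± 0.229). Psat1 and Psph, which make serine, rose by 3.35 and 3.94 on the log2 scale, and Mthfd1l by 4.09. The libraries of each group lay close together in all 5.

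Pyruvate dehydrogenase, the gate between glycolysis and the mitochondrial cycle, and its regulators changed in both directions. Of 13 genes, 7 rose, 4 fell and 2 did not pass (median 0.78), against 29.4% of all genes that rose and 33.3% that fell. The complex subunits Dlat (1.72 ± 0.134), Dld (1.29 ± 0.135) and Pdhx (1.54 ± 0.187) rose. Pdk2, an inhibitory kinase of resting tissue, was at 4.86 and 6.06 CPM in KO_Cul, against 36.9, 46.8 and 37.9 CPM in KO_FI (−2.89 ± 0.224), and Pdk1, induced by hypoxia, at 60.6 and 85.8 CPM in KO_Cul, against 24.1, 22.8 and 21.0 CPM in KO_FI (1.69 ± 0.197). The phosphatase Pdp2, which opposes the kinases, fell (−1.83).

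Mitochondrial energy genes rose in nearly every member. Of 17 genes of the tricarboxylic acid cycle, 15 rose and 2 did not pass (median 1.40), against 29.4% of all genes that rose. Idh3a, of NAD-dependent isocitrate dehydrogenase, was at 341 and 234 CPM in KO_Cul, against 49.7, 53.6 and 52.4 CPM in KO_FI (2.47 ± 0.201) and malate dehydrogenase Mdh2 at 819 and 543 CPM in KO_Cul, against 132, 139 and 129 CPM in KO_FI (2.35 ± 0.240), with Sdhd, Fh1 and Dlst at 1.89, 1.67 and 1.59. All 25 genes of oxidative phosphorylation rose (median 1.73, adjusted p = 0.000316 to 0.0494). Leaving out a library left 19 to 25 of these calls. The cytochrome oxidase subunit Cox5a was at 304 and 226 CPM in KO_Cul, against 28.5, 33.0 and 33.8 CPM in KO_FI (3.06 ± 0.191), and the complex I subunits Ndufa9, Ndufs1, Ndufa4 and Ndufb5 were at log2 fold changes of 1.79, 1.24, 2.43 and 1.52.

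Lipid genes had no such common rise. Of 22 fatty acid oxidation genes, 6 rose, 4 fell and 12 did not pass, against 29.4% of all genes that rose and 33.3% that fell. Without KO_FI index 1 the calls were 3 higher and 3 lower. The median of 0.20 turned to −0.13 with upper quartile factors and to −0.22 with library sizes alone. The fatty acid carrier Cd36, also a gene of vessel cells and macrophages, was at 0.0680 and 0.344 CPM in KO_Cul, against 287, 209 and 258 CPM in KO_FI (−10.19 ± 0.749). Ppargc1a, the coactivator of mitochondrial genes PGC-1alpha and a known SIRT1 substrate, was at 0.680 and 0.825 CPM in KO_Cul, against 7.80, 8.02 and 7.20 CPM in KO_FI (−3.34 ± 0.316), and Ppara, a nuclear receptor for fatty acids, at 0.918 and 2.65 CPM in KO_Cul, against 10.7, 9.06 and 8.78 CPM in KO_FI (−2.41 ± 0.518). Both fell, at low levels. Acadl (1.61) and Etfa (1.19) rose. Of the 22 genes tested of sterol and fatty acid synthesis, 12 fell, 1 rose and 9 did not pass (median −0.91). Over all genes, 33.3% fell. Insig1, the sterol sensor, was at 43.3 and 40.8 CPM in KO_Cul, against 185, 225 and 215 CPM in KO_FI (−2.31 ± 0.172), and the desaturases Scd1 (−2.81) and Scd2 (−1.94) and the cholesterol synthesis enzyme Cyp51 (−1.23) fell. Acly rose by 0.62 (adjusted p = 0.0285) and did not pass without KO_Cul index 1 (adjusted p = 0.0734) or any KO_FI library (0.0595 to 0.103).

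Enzymes that use or make NAD changed without a common direction. Of 20 tested, 5 rose, 8 fell and 7 did not pass (median −0.64), shares close to the 29.4% of all genes that rose and the 33.3% that fell. Parp1, which consumes NAD at DNA breaks, was at 279 and 229 CPM in KO_Cul, against 53.8, 53.5 and 61.8 CPM in KO_FI (2.17 ± 0.166), and Nadk, which makes NADP, at 379 and 348 CPM in KO_Cul, against 118, 129.5 and 123 CPM in KO_FI (1.56 ± 0.158). Both were higher in each KO_Cul library. Sirt2, the cytoplasmic sirtuin, was at 79.6 and 94.0 CPM in KO_Cul, against 205, 245 and 203 CPM in KO_FI (−1.33 ± 0.181). Qprt, of NAD synthesis from tryptophan, was at 0 and 0 CPM in KO_Cul, against 0.645, 0.536 and 0.492 CPM in KO_FI, and Parp2 rose by 1.08. Of the 20 genes for writers and erasers of H4K16 acetylation, 5 rose, 7 fell and 8 did not pass, also close to the shares over all genes, with a median of 0.10 that turned to −0.24 with upper quartile factors, to −0.34 with library sizes alone and to −0.097 without KO_Cul index 0. No direction is given for this list. The acetyltransferase Myst4 (Kat6b) was at 21.3 and 30.4 CPM in KO_Cul, against 102, 104 and 114 CPM in KO_FI (−2.04 ± 0.211) and the deacetylase Hdac9 at 0.0510 and 0.0550 CPM in KO_Cul, against 6.47, 3.22 and 3.88 CPM in KO_FI (−6.36 ± 0.609), while Hdac2 was at 218 and 197 CPM in KO_Cul, against 76.6, 84.2 and 85.6 CPM in KO_FI (1.33 ± 0.143). Msl3, a subunit of a complex that acetylates H4K16, rose by 1.00.

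The machinery of growth rose broadly. Of 22 ribosome biogenesis genes, 21 rose and 1, Fbl, did not pass (median 2.42), against 29.4% of all genes that rose. All 20 cytoplasmic aminoacyl-tRNA synthetases rose (median 2.44, 1.12 to 3.58), as did 19 of 20 proteasome genes (median 2.11). Nhp2, of the complex that modifies ribosomal RNA, was at 342 and 237 CPM in KO_Cul, against 24.4, 23.0 and 25.005 CPM in KO_FI (3.58 ± 0.204), and Dkc1 of the same complex at 2.88. The ribosome assembly factors Rrs1, Rrp9 and Utp20 were at 2.67, 2.37 and 2.23. Gars, which charges glycine tRNA, was at 738 and 733 CPM in KO_Cul, against 60.2, 59.96 and 63.9 CPM in KO_FI (3.58 ± 0.182), and Aars, Cars, Rars and Yars at 3.15, 2.95, 3.16 and 2.48. Psmd14, the deubiquitinase of the proteasome lid, was at 182 and 162 CPM in KO_Cul, against 35.4, 35.02 and 36.5 CPM in KO_FI (2.27 ± 0.137). The libraries of each group lay close together in these 3 genes.

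For the cytoplasmic ribosomal proteins the number of calls depended on which library was left out. Of 20, 5 rose and 15 did not pass (median 1.47), near the 29.4% of all genes that rose. Without KO_FI index 0, 17 rose and 1 fell, and without KO_FI index 1 or index 2 the calls numbered 2 and 0. Without KO_Cul index 0 they numbered 2. Their sum was 45819 and 34315 CPM in KO_Cul, against 6359, 22196 and 19084 CPM in KO_FI. Rpl8, of the large subunit, was at 2603 and 1822 CPM in KO_Cul, against 1012, 995 and 867 CPM in KO_FI (1.21 ± 0.269) and Rps3, of the small subunit, at 2389.6 and 1723 CPM in KO_Cul, against 890.1, 1059 and 884 CPM in KO_FI (1.12 ± 0.267). Both showed no drop in KO_FI index 0. Rpl4 (1.14), Rpl32 (1.56) and Rplp0 (1.66, adjusted p = 0.0497) passed with adjusted p up to that value. Autophagy and lysosome genes showed no common direction, with 9 of 21 higher, 5 lower and 7 that did not pass, against 29.4% of all genes higher and 33.3% lower. The calls numbered 7 without KO_FI index 1 and 8 without KO_FI index 2, with 4 higher in both cases. Ctsd, a lysosomal protease, was at 603 and 1013 CPM in KO_Cul, against 264, 261 and 218 CPM in KO_FI (1.71 ± 0.284), while Tcfeb, the factor that drives lysosomal genes, was at 4.76 and 6.49 CPM in KO_Cul, against 27.8, 30.3 and 25.1 CPM in KO_FI (−2.30 ± 0.234) and Map1lc3a at 11.9 and 15.0 CPM in KO_Cul, against 98.9, 75.9 and 62.5 CPM in KO_FI (−2.56 ± 0.267). Atg5 (0.90) and Wipi1 (1.19) rose.

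Whether activation in SIRT1mKO cells differed from that of WT cells was asked by the difference of the 2 changes, (KO_Cul against KO_FI) minus (WT_Cul against WT_FI), over the 10 libraries of the same tables, in which shifts between the tables cancel. Of 16327 genes, 0 (0%) passed in either direction with edgeR, 426 had an unadjusted p under 0.05, and the lowest adjusted p was 1.00. In the same fit the change itself passed in 30.2% of genes as higher and 34.8% as lower in KO, and in 29.1% as higher and 34.2% as lower in WT. DESeq2 called 5 genes, among them Art3 (adjusted p = 0.0440), Gpr133 (0.0365) and Vat1l (0.0124), and limma on FPKM called 3. The median SE of the difference was 0.453 on the log2 scale, so a p that missed the threshold does not show that a gene behaved alike in KO and WT.

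Of genes of at least 5 CPM in a group, those with the smallest unadjusted p are given as values. Ccdc80, a secreted matrix protein, was at 1.06 and 1.30 CPM in KO_Cul and 84.3, 83.4 and 78.7 CPM in KO_FI, against 0.436 and 0.430 CPM in WT_Cul and 85.6, 69.6 and 95.7 CPM in WT_FI (difference 1.47 ± 0.246, unadjusted p = 0.000243). Agmo, an ether lipid enzyme, was at 0.0845 and 0.0959 CPM in KO_Cul and 7.42, 4.81 and 5.24 CPM in KO_FI, against 0 and 0 CPM in WT_Cul and 6.74, 4.47 and 8.14 CPM in WT_FI (unadjusted p = 0.000501), and Hdac9 at 0.0507 and 0.0548 CPM in KO_Cul and 6.44, 3.21 and 3.87 CPM in KO_FI, against 0 and 0 CPM in WT_Cul and 5.71, 3.93 and 9.74 CPM in WT_FI (unadjusted p = 0.00449). In Agmo and Hdac9 both WT_Cul libraries were at 0 and both KO_Cul libraries at about 0.1 CPM or less, so these rest on a few fragments. Nav3 was at 6.59 and 10.6 CPM in KO_Cul and 24.0, 21.3 and 22.1 CPM in KO_FI, against 20.3 and 17.3 CPM in WT_Cul and 14.6, 8.08 and 14.7 CPM in WT_FI (difference −1.98 ± 0.424, unadjusted p = 0.00131). It was lower in KO_Cul than in KO_FI and higher in WT_Cul than in WT_FI. Ptgr1, which inactivates prostaglandins, was at 281 and 276 CPM in KO_Cul and 12.8, 10.1 and 12.02 CPM in KO_FI, against 488 and 475 CPM in WT_Cul and 12.9, 12.8 and 10.8 CPM in WT_FI (difference −0.73 ± 0.208, unadjusted p = 0.00713). None of these had an adjusted p below 1.00. Other genes with small p-values were Art3, Gpr133, Fam100a and Plau with differences above 0 and Vat1l, Slco2b1, Arhgap22, Abcd2, Il20rb and Bhlhe41 with differences below 0.

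Median changes of the lists are given side by side from that fit. G2/M and mitosis was at 4.54 in KO and 3.66 in WT, G1/S and DNA replication at 4.13 in KO and 3.46 in WT, and glycolysis at 2.45 in KO and 1.84 in WT. Quiescence genes were at −4.48 in KO and −4.12 in WT, and immediate early genes at −2.93 in KO and −4.19 in WT. In none of the 36 lists did a gene pass the test of the difference. Myod1 was at 5.09 in KO and 3.89 in WT, Pax7 at −3.32 in KO and −2.80 in WT, and Sirt1 at 0.12 in KO and 0.47 in WT.

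The WT activation measured in a separate table of WT states (2 WT_Cul and 2 WT_FI libraries, distinct from those above) passed in 4200 of 14680 genes (28.6%), 1845 higher (12.6%) and 2355 lower (16%). Of the genes tested in both, 1678 rose in both, 36.5% of those that rose in KO and 92.4% of those that rose in WT, and 2057 fell in both, 43.7% of those in KO and 90.0% of those in WT. The count in WT depends on the libraries and on the fit. It was 10337 genes for the WT libraries of the same tables as KO, and the change itself differed between the sets of WT libraries in 119 of 15680 genes (0.759%), 14 higher (0.0893%) and 105 lower (0.67%) in the set of the same tables. The count of 119 ran from 0 to 702 when single libraries were left out, and was 0 without either WT_Cul library of the Cul table or either WT_FI library of the table of WT states. The genes of opposite call numbered 20. Cdon, a coreceptor that promotes myogenesis, fell in KO to a mean of 435 CPM in KO_Cul, against 1132 CPM in KO_FI, and rose in WT to 572 CPM in WT_Cul, against 185 CPM in WT_FI (−1.38 and 1.63 on the log2 scale). The integrin Itga3 rose in KO (1.71) and fell in WT (−1.52). These and the other 18 genes were chosen after their values were seen, and none passed the test of the difference against the WT libraries of the same tables.

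In the lists, that table had all 25 G1/S and all 25 G2/M genes higher, as KO had, against 12.6% of all genes tested in it. Of the quiescence list, 10 of 25 were lower (median −1.49), against 16% of all genes tested in it and 33.3% in KO. That table had medians of 0.82 for myogenic commitment, 2.27 for muscle differentiation, −0.058 for NF-kB targets and −1.28 for the Notch pathway. Myf5 was at 1.28 in it (adjusted p = 0.0875), while it was at −1.60 in KO and −1.12 in WT of the same tables. The 2 sets of WT libraries carry the same labels, so a comparison of KO with that table alone would mix genotype and set of libraries.

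**Figure D4:**
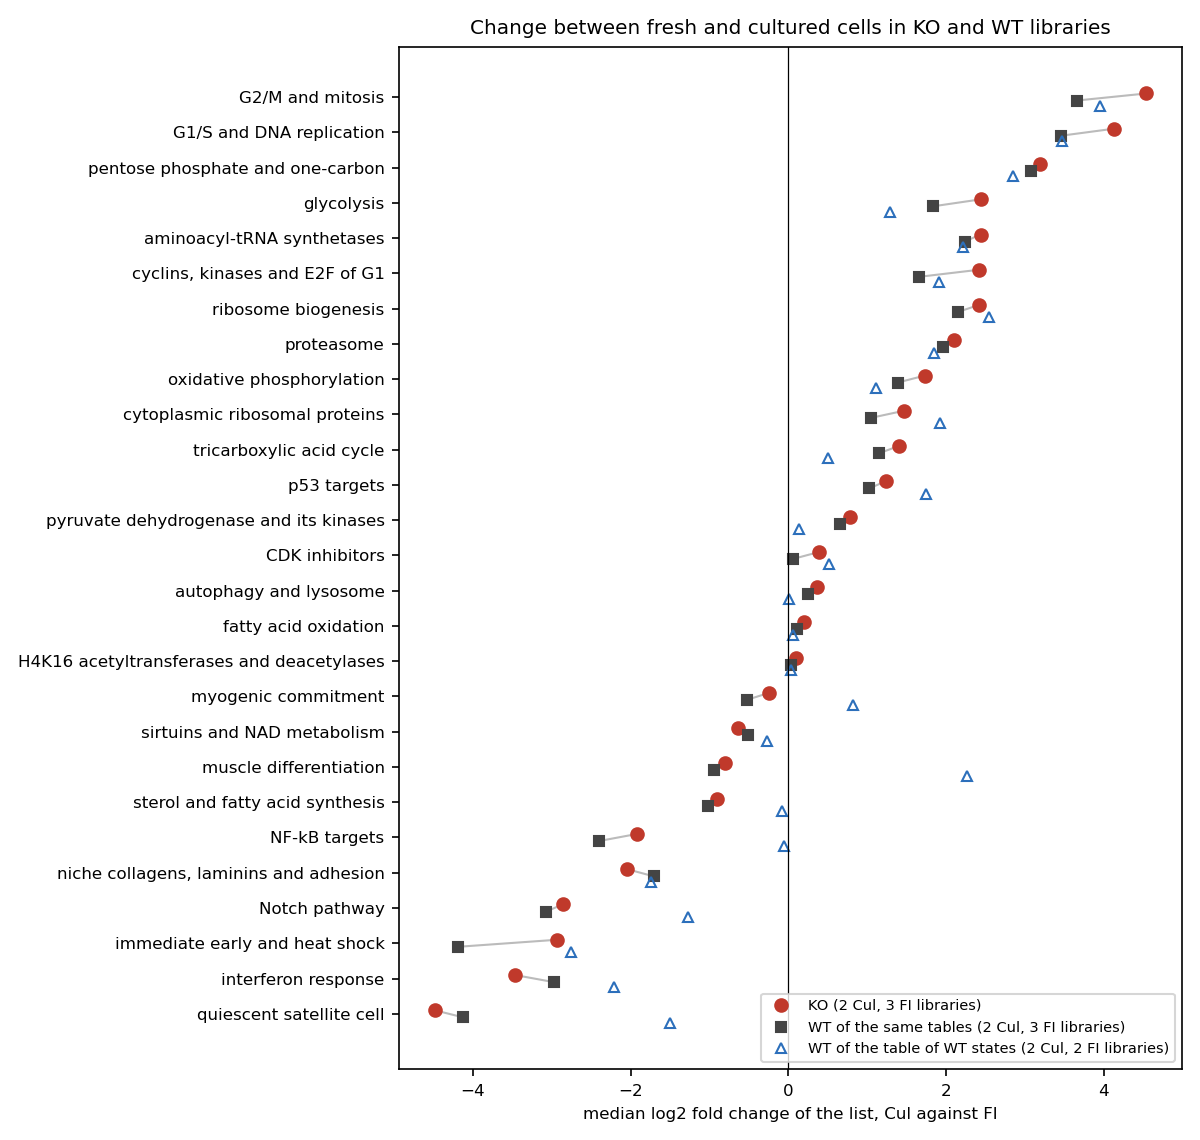
Median log2 fold change, Cul against FI, of 27 gene lists in KO (circles), WT of the same tables (squares) and WT of the table of WT states (open triangles), the first 2 from the 10-library fit. The triangles stand apart from both for several lists, among them quiescence (−4.48 in KO, −4.12 in WT of the same tables and −1.49 in the table of WT states), myogenic commitment and muscle differentiation. Others are NF-kB targets (−1.92, −2.40 and −0.058) and the Notch pathway (−2.86, −3.07 and −1.28), in the same order.

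**Figure D5:**
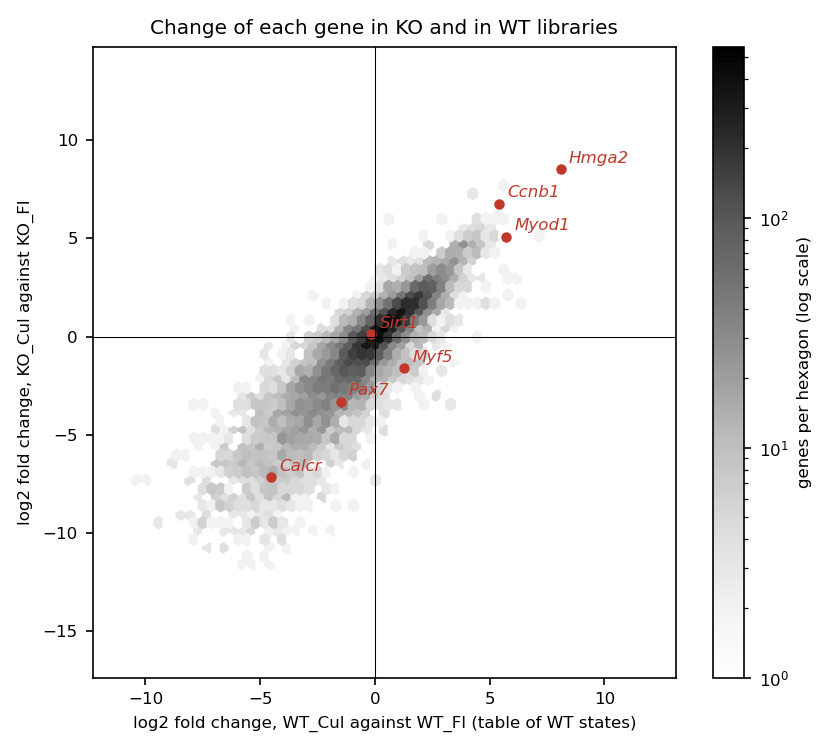
Log2 fold change of each of 14466 genes in KO_Cul against KO_FI (y axis) and in WT_Cul against WT_FI of the table of WT states (x axis), shaded by the number of genes per hexagon on a log scale, with 7 named genes in red. Most genes lie along the diagonal (Pearson's r = 0.859 over genes, which are not independent), and Myf5 lies below 0 in KO and above 0 in WT.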

How the data were processed

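PolyA RNA-seq libraries of SIRT1mKO and WT satellite cells were used. The deposited tables give estimated counts (fragments per gene and library) and FPKM, written by Cuffdiff per the file headers, with replicates kept apart. The sources used here do not say how the authors scaled FPKM. Bowtie, TopHat, Cuffdiff, SICER and the build mm9 are named, without versions, per the submitters' processing notes. Columns give a condition and an index from 0, which is not known to be the labels' replicate number. The letter of the proliferating condition was matched by elimination. The tables give no positions.

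KO libraries were joined over 22526 of 22552 genes with status OK in both tables, fragments were rounded, and edgeR 4.0.16 (R 4.3.3; TMM, filterByExpr, robust quasi-likelihood) was fitted. The difference was fitted on 10 libraries, WT activation within its table, and the WT tables against each other on 9 libraries. DESeq2 1.42.0, limma 3.58.1 on log2(FPKM + 1) of genes at 1 FPKM or more, other scalings, no filter, glmTreat, an index block and leaving out each library were alternatives. The fits were also run on simulated counts with few genes changed, in equal numbers up and down. That setting is unlike these data, so it does not test the scaling here. Floors (3 fragments) cover counting error only. Every pair of KO libraries of a group differed beyond sampling noise (chi-square over degrees of freedom at least 26.77).

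Named genes were Sirt1; up to 12 per direction with the largest fold among non-overlapping calls of at least 20 CPM; up to 5 per list by p and up to 2 against its median; Pax7, Myod1, Myf5 and Myog; and 8 per direction by p for the difference (at least 5 CPM in the highest group). Predicted genes and small RNAs were passed over, and some genes that the rule names are not reported here. The members and the 36 lists were chosen with earlier results of these data known. Use of strand in counting is not stated, and near-identical genes are uncertain. Columns of values per library that were not used: 0. Differentiation and ChIP samples were not analysed here.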

Additional observations from a re-analysis of the deposited data

Results flagged for a closer look

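The change between WT_Cul and WT_FI differed between the 2 sets of WT libraries, those of the tables shared with KO and those of the table of WT states, in 119 of 15680 genes (0.759%), 14 higher and 105 lower in the set shared with KO (edgeR, adjusted p under 0.05, lowest 0.00936). The groups carry the same labels in both sets. Dpt, a matrix protein of fibroblasts, changed by −9.98 in the set shared with KO and by −4.81 in the table of WT states. Heyl, a Notch target, changed by −8.96 and −3.08, Foxd3, a factor of neural crest cells, by −4.57 and 0.29, and the protease Mmp19 by −3.57 and 2.70. In KO the same 4 genes changed by −9.36, −8.11, −3.84 and −3.18. The number of genes ran from 0 to 702 when single libraries were left out. It was 0 without either WT_Cul library of the Cul table and 0 without either WT_FI library of the table of WT states. The sets stand in separate tables, and the part of the table in these differences was not tested.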

How the results depend on the processing

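The count of KO activation calls (9959) was within 1.5 times of itself under most alternatives, at 7911 to 9927 when single libraries were left out, 11060 with DESeq2, 9909 with RLE and 9813 with upper quartile factors, 9883 with no filter, 8327 and 8285 with limma on FPKM and 9645 with library sizes alone. It was 6068 with glmTreat against a fold of 2, which demands a larger change, and 6407 with a replicate block on the index, of which 6349 were among the 9959. The index is not known to be the replicate number of the labels, so the block pairs nothing known. Deviations from the group mean had r = −0.0686 and −0.0955 over genes between same-index libraries. With 2 KO_Cul libraries their deviations mirror each other, so these values cannot show or exclude a pairing. With the block, 2787 of all 15882 genes were higher and 3620 lower. In oxidative phosphorylation 13 of 25 genes and in glycolysis 8 of 21 passed, all higher. In NAD metabolism 7 of 20 passed (3 higher, 4 lower). In fatty acid oxidation 5 of 22 passed (2 higher, 3 lower), and in sterol synthesis 5 of 22, all lower. In H4K16 enzymes 5 of 20 and in autophagy 5 of 21 passed (2 higher, 3 lower in each). In CDK inhibitors 3 of 7 passed (1 higher, 2 lower), and in ribosomal proteins 0 of 20. None of the 9959 turned sign under these alternatives except 11 with library sizes alone (added after seeing the data).

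The difference between KO and WT gave 0 calls without any single library and under the other scalings, no filter and the replicate block, 5 with DESeq2, 3 with limma, 1 without both FI libraries of index 0 (added after seeing the data) and 137 (37 higher, 100 lower) with the WT libraries of the table of WT states. With those, Hdac9 turned to −5.03, Ccdc80 to −3.05, Agmo to −0.33, Art3 to −3.18, Gpr133 to −0.086, Fam100a to −0.63, Plau to −0.74 and Ptgr1 to 0.29. The cause was not tested. The WT activation count (4200) was 2063 to 8050 without single libraries (2063 and 2108 without a WT_FI library), 5884 with DESeq2, 6176 with the replicate block and 10337 in the WT libraries of the FI and Cul tables (added after seeing the data). The WT difference between tables (119) was 0 to 702 without single libraries (0 to 29 in the FI and Cul tables, 315 and 702 without a WT_Cul library of the table of WT states), 1099 with DESeq2 and 194 with limma.

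Sirt1 (0.12) turned to −0.21 with upper quartile factors, −0.13 and −0.14 with limma at pseudocounts of 1 and 0.1, −0.29 with library sizes alone, and ran from −0.083 to 0.36 without single libraries, below 0 without KO_FI index 1 or KO_Cul index 1 (−0.073). Of 3087 gene values under alternatives, 104 no longer passed, 21 of them with the block and 21 with glmTreat, and Myog passed with the block alone (−4.20, adjusted p = 0.0401). Depth limits genes at 0 in a group to bounds.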

Other observations

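Of the genes with opposite calls in KO and in the table of WT states, 3 more were as follows. Sox2 was at means of 0.444 CPM in KO_Cul and 3.23 CPM in KO_FI, and at 21.9 CPM in WT_Cul and 6.00 CPM in WT_FI of that table. Klk9, a kallikrein protease, was at 0.280 CPM in KO_Cul and 0.988 CPM in KO_FI, and at 34.0 CPM in WT_Cul and 2.86 CPM in WT_FI. Tubb2a, a tubulin, was at 24.3 CPM in KO_Cul and 58.1 CPM in KO_FI, and at 133 CPM in WT_Cul and 37.3 CPM in WT_FI. Levels are scaled within each fit and are compared only within it. These genes were picked after their values were seen. In all 3, the change in WT itself differed between the sets of WT libraries. The adjusted p in edgeR was 0.0271 for Sox2, 0.00936 for Klk9 and 0.0270 for Tubb2a. Klk9 changed by −2.72 in WT of the same tables as KO and by −1.83 in KO. None of the 3 passed the test of the difference between KO and those WT libraries.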
